A study of Mus musculus with 6 samples.

Results

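The liver secretes most of the coagulation and complement proteins of plasma, and the 43 genes described here encode 24 coagulation and 19 complement factors made by hepatocytes. They were chosen as a list of gene symbols, and all 43 were found among the 15092 genes of the table and all 43 passed the filter on low counts. Coagulation is a cascade in which inactive protease precursors are activated in sequence until thrombin cuts fibrinogen into fibrin, while anticoagulant proteins brake the cascade and plasmin dissolves the clot. Complement is a second protease cascade, started by C1, by mannose-binding lectins or through factor B, that deposits C3 on a target and ends in a pore, the membrane attack complex. Several of these genes are acute phase genes, which hepatocytes induce in response to interleukin-6 during inflammation.

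Messenger RNA was sequenced from C57BL/6J mouse liver, in 3 libraries labelled CRY1 KO and 3 labelled WT. The Cry1 product is a cryptochrome, which represses transcription in the circadian clock. The labels name no allele, promoter or Cre, and no age, sex, feeding state or time of day. All titles carry the prefix NC, whose meaning is not given. The labels also do not say that replicates were separate animals, so p-values measure the spread between these libraries, which may be in part technical. Total estimated counts per library ranged from 79708703 to 91316332. Cry1 had 6.95, 6.41 and 5.22 CPM in libraries labelled CRY1 KO, against 4.8, 6.89 and 7.24 CPM in WT, a log2 difference of -0.027 with an SE of 0.19 and an edgeR adjusted p of 0.954. The groups overlapped, so a lower Cry1 level was not detectable in the libraries labelled as knockout. The labels do not say which part of the gene an allele would remove, and each direction below is that of the libraries labelled CRY1 KO. The labels call the cell type hepatocyte, and 10 hepatocyte marker genes together had 100376, 102912 and 107099 CPM in CRY1 KO and 101092, 94640.4 and 96961 CPM in WT. Markers of other liver cells were also present, with 235, 234 and 236 CPM in CRY1 KO and 649.8, 408 and 255 CPM in WT for 11 genes of Kupffer cells, the liver macrophages. WT 1 was highest for these and WT 3 lay closest to the CRY1 KO libraries. WT 1 was also highest for 9 red cell and platelet markers, with 680.3, 585 and 739 CPM in CRY1 KO and 2982, 1028 and 658 CPM in WT.

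None of the 43 genes passed the edgeR quasi-likelihood test between CRY1 KO and WT liver after Benjamini-Hochberg adjustment over 13816 tested genes at a threshold of 0.05. By this rule 1.7% of all tested genes were called (1.06% higher and 0.644% lower). At an unadjusted p under 0.05 there were 5 members, 1 higher (F13b) and 4 lower (F7, Fgg, Mbl1 and C3), a share of 11.6% beside 20.7% of all tested genes. DESeq2 called 1 member, F13b (log2 0.31, adjusted p = 0.0248), where it called 10.8% of the 11936 genes to which it gave an adjusted p. The 10.8% given for DESeq2 below has this base too, while the sizes of gene lists count genes tested in edgeR. Without WT 3 edgeR called 2 members, F13b (log2 0.38, adjusted p = 0.0379) and Mbl1 (log2 -0.38, adjusted p = 0.0487), where 6.04% of genes were called. Among the 2104 tested genes with a mean of at least 52.9 CPM, the lowest mean of a member, edgeR called 3.04%. Of these 2104 genes 25.5% had an unadjusted p under 0.05. In a bulk sample, fewer cells of a type and less RNA per cell cannot be told apart.

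The differences were small in size as well as short of the threshold. Log2 differences, CRY1 KO minus WT, ran from -0.36 for Hc to 0.31 for F13b. Their median was -0.048 over the coagulation members and -0.060 over the complement members, beside -0.019 over all tested genes. It was 0.026 over the 2104 genes at or above the lowest member mean. The median size of the difference was 0.10 on the log2 scale over the members, 0.21 over all tested genes and 0.16 over those 2104 genes. The 95% interval of the difference, which is not adjusted for the number of genes, lay within a 1.5-fold change either way for 38 of the 43 members. This held for all 24 coagulation members and for 14 of the 19 complement members. Of all tested genes 47.4% had such an interval, and of the 2104 genes at or above the lowest member mean it was 75%. The 5 members with wider intervals were C3, C4b, Hc, C6 and C9, all of the complement list, and the interval reached past a 1.5-fold decrease for C3, C4b and Hc and past a 1.5-fold increase for C6 and C9.

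**Figure D1:**
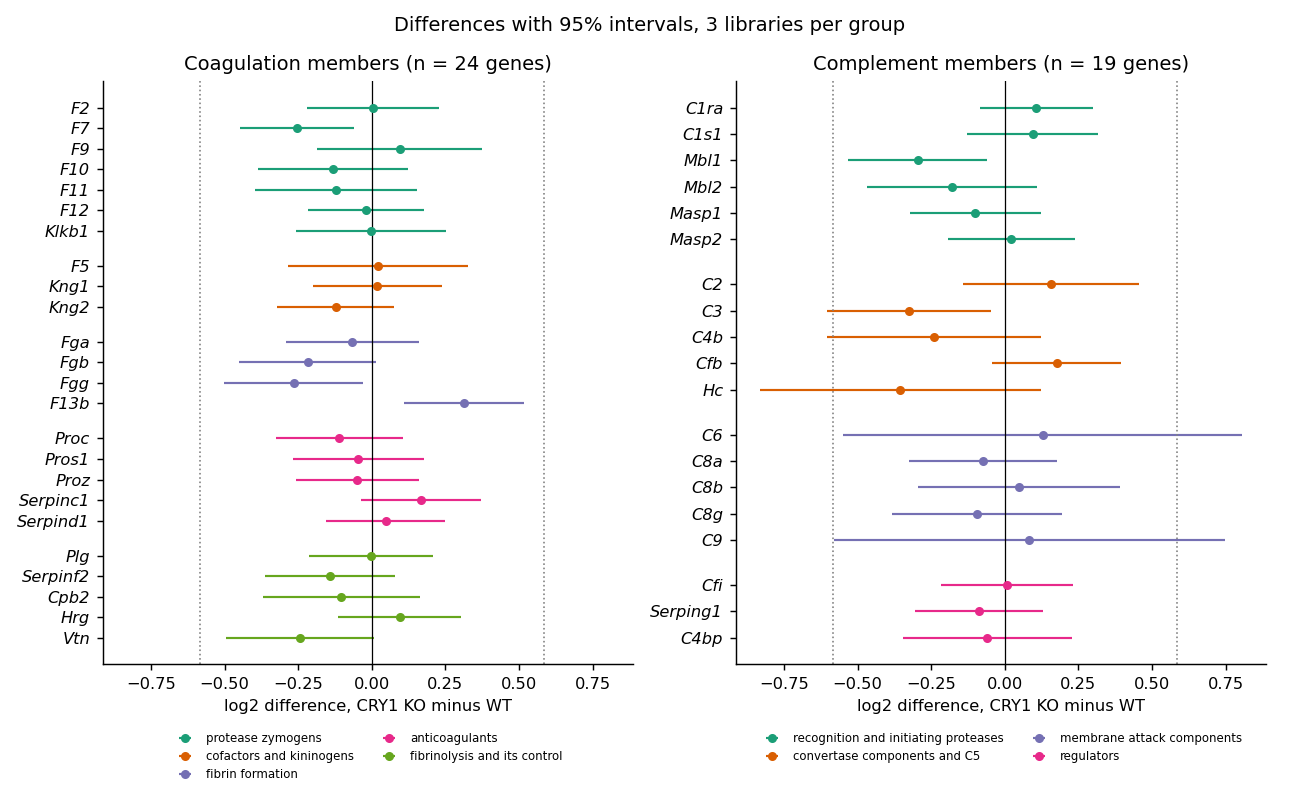
Log2 difference (CRY1 KO minus WT, x axis) of each of 24 coagulation and 19 complement genes (y axis) with its 95% interval from 3 libraries per group, coloured by role; dotted lines mark a 1.5-fold change either way. Points lie between -0.36 and 0.31, and the widest intervals are those of C6, C9 and Hc.

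For 9 of the 43 members (20.9%) the groups did not overlap, beside 27.3% of all tested genes. Of the 2104 genes at or above the lowest member mean this share was 33.7%. CRY1 KO lay below WT for F7, Fgb, Fgg, Vtn, Mbl1 and C3 and above WT for F13b, Serpinc1 and Cfb. Among all tested genes 12.7% had CRY1 KO below and 14.6% above. Of the coagulation members 6 of 24 did not overlap and of the complement members 3 of 19.

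Among protease precursors of coagulation, F2, which encodes prothrombin, had 1501, 1435 and 1423 CPM in libraries labelled CRY1 KO, against 1519, 1497 and 1330.4 CPM in WT, a log2 difference of 0.004 with an SE of 0.10 and an edgeR adjusted p of 0.989. The libraries of both groups were interleaved. F7, the precursor that tissue factor activates to start clotting, had 63.6, 66.6 and 64.0 CPM in libraries labelled CRY1 KO, against 77.2, 82.6 and 71.7 CPM in WT. All 3 CRY1 KO libraries lay below all WT libraries, by a log2 difference of -0.25 with an SE of 0.085 and an edgeR adjusted p of 0.148. The other 5 precursors overlapped between groups, with log2 differences of 0.095 for F9, -0.13 for F10, -0.12 for F11, -0.019 for F12 and -0.0029 for Klkb1, which encodes plasma prekallikrein. F12, Klkb1 and F11 belong to contact activation, and F9 and F10 act in sequence before thrombin. F7, F10 and Proz are neighbours in gene order, with differences of -0.25, -0.13 and -0.05.

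F5, the cofactor of activated factor X, had a log2 difference of 0.02 with a 95% interval from -0.28 to 0.33. Kng1, a kininogen gene, had 1794, 1844 and 1919.6 CPM in libraries labelled CRY1 KO, against 1945, 1764 and 1779 CPM in WT, a log2 difference of 0.018 with an SE of 0.10 and an edgeR adjusted p of 0.939. Kng2, its neighbour and close copy, had a difference of -0.12. Groups overlapped for these 3 genes, and reads shared by the kininogen genes make the split between Kng1 and Kng2 uncertain.

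Fibrinogen is built from 3 chains encoded by adjacent genes, and their libraries did not line up alike. Fga, the Aα chain gene, had 4288, 4334 and 4576 CPM in libraries labelled CRY1 KO, against 4496, 4851 and 4473 CPM in WT, a log2 difference of -0.066 with an SE of 0.10 and an edgeR adjusted p of 0.738. Fgb, the Bβ chain gene, had 4091, 4184 and 3881 CPM in libraries labelled CRY1 KO, against 4883, 4868 and 4385 CPM in WT, a log2 difference of -0.22 with an SE of 0.10 and an edgeR adjusted p of 0.268. Fgg, the γ chain gene, had 3347, 3528 and 3183 CPM in libraries labelled CRY1 KO, against 4151, 4198 and 3742 CPM in WT, a log2 difference of -0.27 with an SE of 0.10 and an edgeR adjusted p of 0.2. CRY1 KO lay below WT in every library for Fgb and Fgg, while for Fga the CRY1 KO 3 library lay above WT 1 and WT 3. Per kilobase of GENCODE M21 transcript, the Fga to Fgb ratio was 1.54, 1.53 and 1.74 in CRY1 KO and 1.36, 1.47 and 1.5 in WT. The Fga to Fgg ratio was 0.839, 0.805 and 0.942 in CRY1 KO and 0.71, 0.757 and 0.783 in WT. Neither ratio overlapped between groups, each with an exact two-sided permutation p of 0.1, the smallest that 3 against 3 libraries allow. The Fgb to Fgg ratio was 0.544, 0.528 and 0.542 in CRY1 KO and 0.523, 0.516 and 0.521 in WT (exact permutation p = 0.1). Its groups did not overlap either, though its range over the 6 libraries was narrower than that of the other ratios. The size of each ratio depends on the transcript lengths used, which are the same for all libraries. These ratios were chosen after the gene values were seen.

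**Figure D2:**
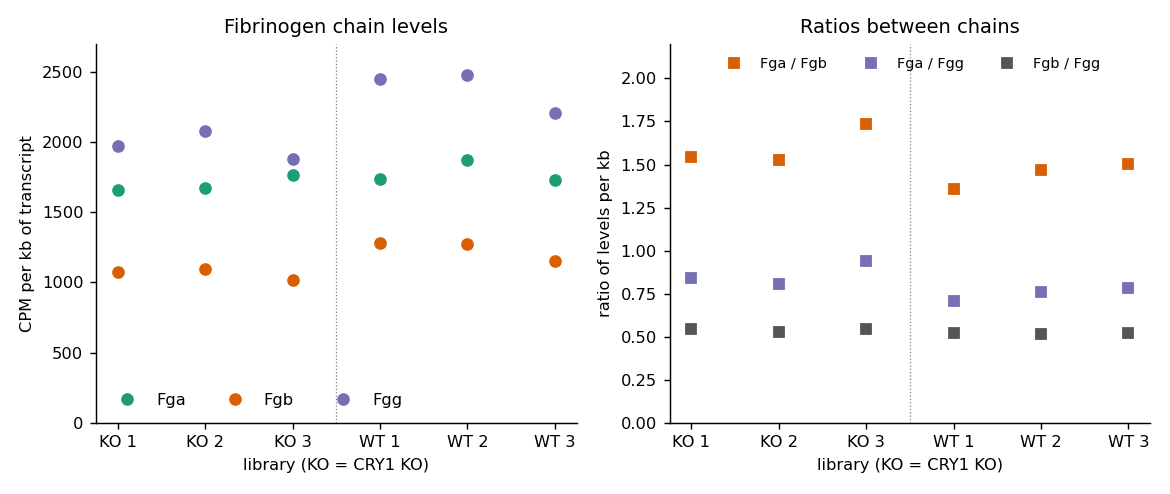
Left, level (y axis, CPM per kb of transcript) of the fibrinogen chain genes Fga, Fgb and Fgg in each library (x axis); right, ratios between the chains (y axis) in the same libraries, 1 point per library. CRY1 KO libraries lie below WT for Fgb and Fgg, and the Fga to Fgb ratio is 1.6 ± 0.117 in CRY1 KO and 1.44 ± 0.0764 in WT (SD, n = 3 each).

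F13b encodes the carrier subunit of factor XIII, the enzyme that cross-links fibrin. It had 193, 196 and 196 CPM in libraries labelled CRY1 KO, against 150.1, 149 and 171 CPM in WT. All CRY1 KO libraries lay above all WT libraries, by a log2 difference of 0.31 with an SE of 0.089 and an edgeR adjusted p of 0.106. F13b averaged 195 ± 1.6 CPM in CRY1 KO and 157 ± 12.5 CPM in WT (SD, n = 3 each).

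The sequences before the start sites of the fibrin-forming genes are shown because Fgb and Fgg lay below WT, Fga overlapped with it and F13b lay above it. None of these genes passed the threshold in edgeR, and a link between sequence and direction was not tested. They are RefSeq sequences of build GRCm38.p6, from 250 bases before to 50 bases after the gene start, and the table was made on another build, so they were matched by symbol. Capitals mark GTTAAT, a core shared by sites of HNF1, TTGCNNAA, a C/EBP-type site, and CTGGGAA, a type II interleukin-6 response element, each on either strand.
Fga (chr3:83025903-83026202, plus strand): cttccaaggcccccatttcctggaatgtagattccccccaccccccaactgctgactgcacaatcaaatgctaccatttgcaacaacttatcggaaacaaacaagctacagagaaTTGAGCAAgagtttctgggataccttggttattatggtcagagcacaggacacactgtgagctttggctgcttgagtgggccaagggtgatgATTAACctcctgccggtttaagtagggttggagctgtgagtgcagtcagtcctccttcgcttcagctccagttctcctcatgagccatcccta
Fgb (chr3:83049814-83050113, minus strand): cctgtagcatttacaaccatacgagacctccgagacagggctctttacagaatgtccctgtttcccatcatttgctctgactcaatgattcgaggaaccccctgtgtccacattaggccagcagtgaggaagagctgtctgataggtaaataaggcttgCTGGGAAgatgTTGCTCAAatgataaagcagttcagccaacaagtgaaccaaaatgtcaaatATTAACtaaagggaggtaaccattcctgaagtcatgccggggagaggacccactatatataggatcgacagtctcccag
Fgg (chr3:83007474-83007773, plus strand): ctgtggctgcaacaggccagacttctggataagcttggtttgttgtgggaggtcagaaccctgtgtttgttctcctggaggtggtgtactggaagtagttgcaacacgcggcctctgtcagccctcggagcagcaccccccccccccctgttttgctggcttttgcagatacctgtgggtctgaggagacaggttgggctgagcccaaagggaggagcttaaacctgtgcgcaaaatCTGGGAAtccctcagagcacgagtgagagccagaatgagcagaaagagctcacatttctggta
F13b (chr1:139501457-139501756, plus strand): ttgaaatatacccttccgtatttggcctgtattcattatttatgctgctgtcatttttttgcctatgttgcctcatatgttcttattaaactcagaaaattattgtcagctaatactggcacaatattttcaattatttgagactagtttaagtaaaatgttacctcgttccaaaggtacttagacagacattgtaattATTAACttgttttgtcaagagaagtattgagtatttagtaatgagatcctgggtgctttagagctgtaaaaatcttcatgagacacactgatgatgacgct

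The Fgb window held all 3 motifs, at positions -91 (CTGGGAA), -80 (the C/EBP-type site) and -29 (the HNF1-type core) from the gene start. That of Fgg held CTGGGAA at -13, that of Fga a C/EBP-type site at -135 and an HNF1-type core at -43, and that of F13b an HNF1-type core at -51. RefSeq promoters were matched for 34 of the 43 members, giving 36 windows. Of these 30.6% held the HNF1-type core, beside 7.10% of 32851 windows of all genes. The C/EBP-type site was in 36.1% beside 10.8%, and CTGGGAA in 22.2% beside 11.1%. The clock motifs CACGTG (E-box) and TTATGTAA or TTACGTAA (D-box) were in 0 of the 36 windows, beside 7.15% and 1.06% of all windows, and CAAAGTCCA, an HNF4 site, was in 0 beside 0.475%. With 36 windows and shares this low, a count of 0 does not show that the E-box, D-box or HNF4 motif is lacking among members. A match is a run of letters in this window, not a binding site.

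Among anticoagulants, Serpinc1, which encodes antithrombin, the main inhibitor of thrombin and factor Xa, had 1876, 1859.9 and 1845 CPM in libraries labelled CRY1 KO, against 1682, 1665 and 1617 CPM in WT. CRY1 KO lay above WT in every library, a log2 difference of 0.17 with an SE of 0.089 and an edgeR adjusted p of 0.32, and its replicates were the closest of the 43 members, with an SD within groups of 0.0225 on the log2 scale. Groups overlapped for the other 4. Their log2 differences were 0.047 for Serpind1 (heparin cofactor II), -0.11 for Proc (protein C), -0.046 for Pros1 (protein S, the cofactor of activated protein C) and -0.05 for Proz (protein Z).

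Plg, which encodes plasminogen, the precursor of the clot-dissolving protease plasmin, had 2490.0, 2400.0 and 2359.9 CPM in libraries labelled CRY1 KO, against 2463, 2422 and 2379.5 CPM in WT, a log2 difference of -0.003 with an SE of 0.092 and an edgeR adjusted p of 0.991. Its groups overlapped, and its 95% interval ran from -0.21 to 0.21. Vtn, which encodes vitronectin, an adhesion protein that binds plasminogen activator inhibitor, had 1993, 2043 and 1906 CPM in libraries labelled CRY1 KO, against 2535, 2432 and 2072 CPM in WT. CRY1 KO lay below WT in every library, a log2 difference of -0.24 with an SE of 0.11 and an edgeR adjusted p of 0.252. Groups overlapped for Serpinf2 (α2-antiplasmin, the plasmin inhibitor, -0.14), Cpb2 (a carboxypeptidase that protects fibrin, -0.10) and Hrg (histidine-rich glycoprotein, 0.094).

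Members that depend on vitamin K for γ-carboxylation (F2, F7, F9, F10, Proc, Pros1 and Proz) summed to 2939, 2848 and 2788 CPM in CRY1 KO and 3023, 2998 and 2789.5 CPM in WT, and 0 of 7 passed in edgeR (1 at an unadjusted p under 0.05, F7) or in DESeq2. In a companion list of 6 genes for γ-carboxylation, vitamin K recycling and export of factor V, 0 of 6 passed in edgeR (1 at an unadjusted p under 0.05) or in DESeq2, with a median log2 difference of 0.031. The smallest p in it were those of Vkorc1l1, a paralog of the vitamin K epoxide reductase gene (0.27, edgeR adjusted p = 0.159), and Vkorc1 itself (-0.18, edgeR adjusted p = 0.334).

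**Figure D3:**
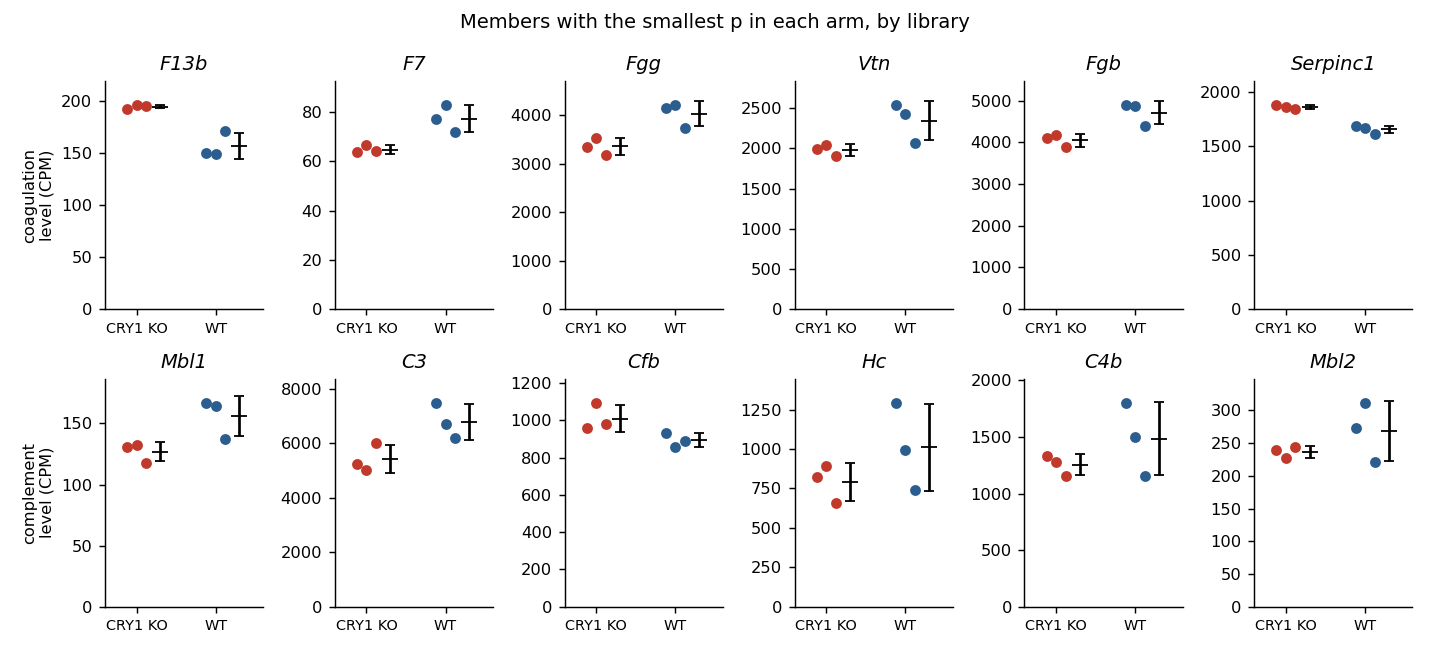
Level (y axis, CPM, from 0) by library of the 6 coagulation genes (top) and 6 complement genes (bottom) with the smallest p; points are libraries, and bars the mean ± SD of 3 libraries per group (x axis). Groups do not overlap for the 6 coagulation genes nor for Mbl1, C3 and Cfb, while WT 3 lies within the CRY1 KO range for Hc and C4b and below it for Mbl2.

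Among genes that start complement, Mbl1, a mannose-binding lectin gene, had 131, 132 and 118 CPM in libraries labelled CRY1 KO, against 167, 164 and 137 CPM in WT. CRY1 KO lay below WT in every library, a log2 difference of -0.30 with an SE of 0.10 and an edgeR adjusted p of 0.16. Mbl2, the second lectin gene, had 240.1, 227 and 244 CPM in libraries labelled CRY1 KO, against 273, 311 and 221 CPM in WT. WT 3 lay below all CRY1 KO libraries for Mbl2, so its groups overlapped, a log2 difference of -0.18 with an SE of 0.13 and an edgeR adjusted p of 0.447. For Mbl2 the difference was -0.061 without WT 2 and -0.30 without WT 3. C1s1, a protease gene of C1, had 474, 441 and 415 CPM in libraries labelled CRY1 KO, against 432, 379.8 and 434 CPM in WT, a log2 difference of 0.094 with an SE of 0.10 and an edgeR adjusted p of 0.62. Groups overlapped for it and for its neighbour C1ra (0.11), and for the lectin pathway protease genes Masp1 (-0.10) and Masp2 (0.022). C1ra and C1s1 have close copies, C1rb and C1s2, so their values depend on how shared reads were assigned.

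C3, the central opsonin of complement, had 5231, 5039 and 6005 CPM in libraries labelled CRY1 KO, against 7478, 6718 and 6185 CPM in WT. CRY1 KO lay below WT in every library, a log2 difference of -0.32 with an SE of 0.12 and an edgeR adjusted p of 0.187, with a 95% interval from -0.60 to -0.046. C4b, an opsonin gene with a near-identical copy, C4a, that was not analysed here, had 1336, 1279 and 1154 CPM in libraries labelled CRY1 KO, against 1799.6, 1498 and 1154 CPM in WT, a log2 difference of -0.24 with an SE of 0.16 and an edgeR adjusted p of 0.419. Hc, which encodes C5, had 822, 891 and 657 CPM in libraries labelled CRY1 KO, against 1291, 997 and 743 CPM in WT, a log2 difference of -0.36 with an SE of 0.21 and an edgeR adjusted p of 0.365. For C3, C4b and Hc the WT 1 library was the highest of all 6 and WT 3 the lowest of WT, and for C4b and Hc the groups overlapped through WT 3.

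The order WT 1, WT 2, WT 3 from high to low held for 19 of the 43 members (44.2%), C3, C4b and Hc among them, beside 20.5% of all tested genes. Counting this order was not planned, and its share among genes at or above the lowest member mean was not computed. Some members had the reverse order, such as Klkb1 (270, 312 and 356 CPM in WT) and Proc (410, 448 and 476 CPM in WT). The Kupffer cell marker sums fell from WT 1 to WT 2 to WT 3. Of these markers 8 of 11 had groups that did not overlap, beside 27.3% of all tested genes, and none was at 0. Of the 11 markers edgeR called 0 and DESeq2 called 6. Their summed levels were 235, 234 and 236 CPM in CRY1 KO and 649.8, 408 and 255 CPM in WT, and their part in the differences of C3, C4b and Hc was not tested. Without WT 1 the log2 difference was -0.25 for C3, -0.078 for C4b and -0.14 for Hc. Without WT 3 it was -0.39 for C3, -0.39 for C4b and -0.53 for Hc.

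Cfb, which encodes factor B, the protease of the alternative pathway, had 957, 1092 and 979 CPM in libraries labelled CRY1 KO, against 933, 858 and 888 CPM in WT. All CRY1 KO libraries lay above all WT libraries for Cfb, a log2 difference of 0.18 with an SE of 0.10 and an edgeR adjusted p of 0.335. C2, its neighbour and the gene of the matching protease of the classical and lectin pathways, had 110.4, 128 and 109.5 CPM in libraries labelled CRY1 KO, against 119, 107 and 85.6 CPM in WT, a log2 difference of 0.16 with an SE of 0.13 and an edgeR adjusted p of 0.526. CRY1 KO 1 and CRY1 KO 3 lay below WT 1 for C2, so its groups overlapped. Its difference was 0.27 without WT 1, 0.037 without WT 3 and 0.081 without CRY1 KO 2.

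**Figure D4:**
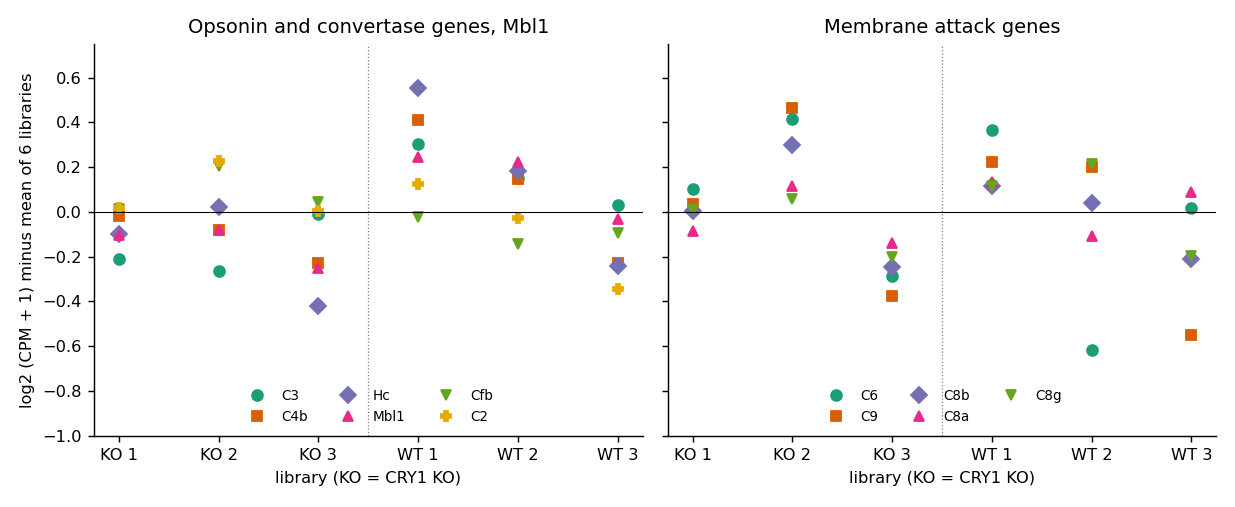
Deviation of log2 (CPM + 1) from the mean of all 6 libraries (y axis) in each library (x axis), for C3, C4b, Hc, Mbl1, Cfb and C2 on the left and membrane attack genes on the right. Hc, C4b and C3 are highest in WT 1, and C9 and C8b are highest in CRY1 KO 2 and low in CRY1 KO 3 and WT 3.

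The 5 genes for C6, C8 and C9, which join C5b in the membrane attack complex, each had an SD within groups larger than its difference between groups on the log2 scale, from 0.131 for C8a to 0.431 for C6. C9, which encodes the pore-forming subunit, had 712, 959 and 535 CPM in libraries labelled CRY1 KO, against 810.2, 798 and 474 CPM in WT, a log2 difference of 0.084 with an SE of 0.28 and an edgeR adjusted p of 0.894. C6 had 333, 413 and 253 CPM in libraries labelled CRY1 KO, against 399, 202 and 313 CPM in WT, a log2 difference of 0.13 with an SE of 0.28 and an edgeR adjusted p of 0.831. CRY1 KO 2 was the highest of all 6 libraries for C9, C6 and C8b, CRY1 KO 3 was the lowest of CRY1 KO for all 3, and in WT the lowest was WT 3 for C9 and C8b but WT 2 for C6. C8b had 420.1, 517 and 353 CPM in libraries labelled CRY1 KO, against 455, 431 and 363 CPM in WT, a log2 difference of 0.047. C8a, its neighbour, had 754, 866 and 726 CPM in libraries labelled CRY1 KO, against 877, 742 and 850.2 CPM in WT, a log2 difference of -0.074 with an SE of 0.11 and an edgeR adjusted p of 0.738. C8g, for the third chain of C8, had a difference of -0.095. Groups overlapped for all 5 genes.

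Among complement regulators, Serping1, the gene of the C1 inhibitor, which also inhibits plasma kallikrein and activated factor XII, had 669.5, 716 and 662 CPM in libraries labelled CRY1 KO, against 777, 731 and 669 CPM in WT, a log2 difference of -0.088 with an SE of 0.10 and an edgeR adjusted p of 0.636. Cfi, the protease gene that cleaves C3b and C4b, had a difference of 0.0079, and C4bp, its cofactor, of -0.06. Groups overlapped for these 3 genes.

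The 2 arms differed in how far replicates lay apart, which is given as a description. The median SD within groups, on log2 (CPM + 1), was 0.082 over the coagulation members and 0.135 over the complement members, beside 0.147 over all tested genes and 0.124 over the 2104 genes at or above the lowest member mean. It was 0.129 over complement without C6, C9 and Hc. The largest were those of C6 (0.431), C9 (0.43), Hc (0.324), C4b (0.24) and C8b (0.228). CRY1 KO 3 held the lowest value of the 6 libraries for 18 of the 43 members, 9 in each arm, and WT 1 the highest for 15. The same counts were not made over all tested genes, so these are not read as a trait of the members.

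**Figure D5:**
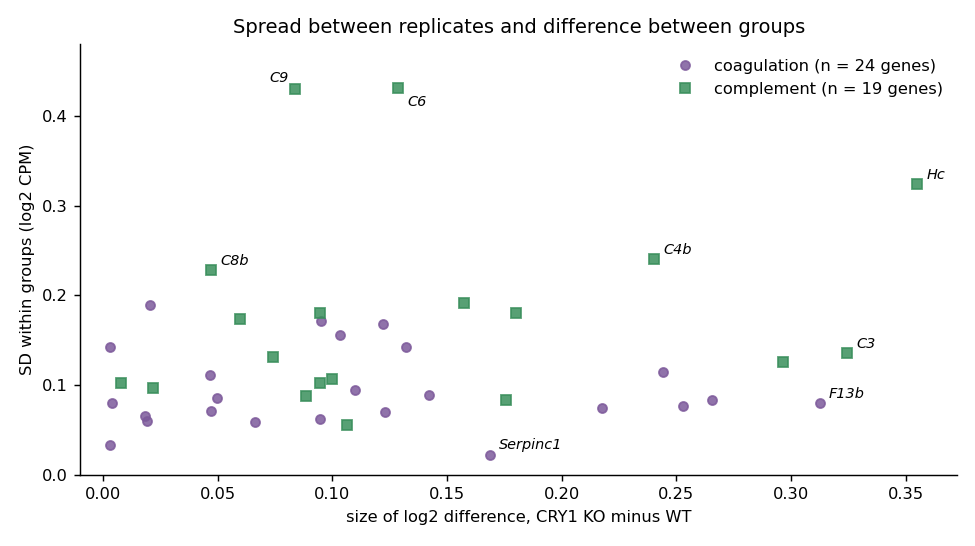
SD between replicates within groups (y axis, log2 CPM) against the size of the log2 difference (x axis) for each coagulation gene (circles) and complement gene (squares). C6, C9 and Hc have the largest SD, and F13b combines a difference of 0.31 with an SD of 0.0798.

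Summed over the genes of each arm, coagulation took 26929, 27182 and 26443 CPM in CRY1 KO and 29142, 29272 and 27462 CPM in WT. Complement took 14019, 14641 and 13972 CPM in CRY1 KO and 17792, 15778 and 14273 CPM in WT. The ratio of coagulation to complement was 1.92, 1.86 and 1.89 in CRY1 KO and 1.64, 1.86 and 1.92 in WT, so the groups overlapped (exact two-sided permutation p = 0.6) and WT 1 was lowest. Together the members made up 4.03%, 3.89% and 4.32% of a library's counts in CRY1 KO and 4.42%, 4.51% and 4.52% in WT. The groups did not overlap for this share or for the coagulation sum, and they overlapped for the complement sum. The share and the sums were not tested. Of 8 members that are acute phase genes (Fga, Fgb, Fgg, C3, C4b, C9, Cfb and Serping1), 6 had negative differences, with a median of -0.15. In edgeR 0 passed, and in DESeq2 0 passed. At an unadjusted edgeR p under 0.05 there were 2, Fgg and C3 (25%). This share was 20.7% of all tested genes and 25.5% of the 2104 genes at or above the lowest member mean. The summed level of the 8 acute phase members was 20631, 21132 and 20975 CPM in CRY1 KO and 25329, 24519.8 and 21971 CPM in WT.

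Levels of different genes were compared per kilobase of GENCODE M21 transcript. The order depends on the transcript length used, which was 1695 bases for Fgg and 3810 for Fgb. Before division by length Fgb had the higher mean, 4052 CPM against 3353 in CRY1 KO and 4712 against 4030 in WT. Per kb Fgg was highest in both groups, at 1978 CPM per kb in CRY1 KO and 2378 in WT. Next in WT came Fga, with 1701 CPM per kb in CRY1 KO and 1781 in WT, and Vtn, with 1136 in CRY1 KO and 1345 in WT. C3 was the highest complement member, at 1056 CPM per kb in CRY1 KO and 1323 in WT. Pros1 was lowest, at 15.8 CPM per kb in CRY1 KO and 16.3 in WT.

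Other genes of both cascades, mostly made by other cells or acting at their surface, gave 0 calls in edgeR as well. Of 21 tested further coagulation and fibrinolysis genes 3 had an unadjusted p under 0.05 (14.3%, beside 20.7% of all tested genes). DESeq2 called 1, Thbd, where it called 10.8% of genes, and the median log2 difference was -0.061 over the list. Of 30 tested further complement genes, with a median of -0.045, 7 had an unadjusted p under 0.05 (23.3%, beside the same 20.7%). DESeq2 called 6 of the 30, beside 10.8% of genes, and edgeR without WT 3 called 8, beside 6.04% of genes. Among the genes that DESeq2 called were Cfhr2, higher, and C1qa, C1qb, C1qc and Vsig4, lower, and these last 4 are also Kupffer cell markers. In the first list the smallest p were those of Thbd, which encodes thrombomodulin (5.96, 3.25 and 6.46 CPM in libraries labelled CRY1 KO, against 3.13, 2.94 and 1.76 CPM in WT; edgeR adjusted p = 0.131), and Tfpi, which encodes tissue factor pathway inhibitor (4.39, 4.61 and 5.17 CPM in libraries labelled CRY1 KO, against 7.49, 6.93 and 5.42 CPM in WT; edgeR adjusted p = 0.15). The groups did not overlap for either gene, with CRY1 KO above WT for Thbd and below it for Tfpi. In the second list Cfhr2, which belongs to a family of close copies, had the smallest p. It had 536, 614 and 535 CPM in libraries labelled CRY1 KO, against 422, 433 and 417 CPM in WT, a log2 difference of 0.40 with an SE of 0.092 and an edgeR adjusted p of 0.0668. All CRY1 KO libraries lay above all WT libraries for Cfhr2.

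Of 20 regulators of hepatocyte genes, 1 rose and 0 fell past the threshold in edgeR, beside 1.06% and 0.644% of all tested genes. At an unadjusted edgeR p under 0.05 there were 9 (45%, beside 20.7%). DESeq2 called 7, where it called 10.8% of genes. By edgeR log2 difference, Hnf4a, Nr1h4, Il6ra (1.97), Il1r1 (0.76) and Prox1 (0.61) of these were higher. Socs3 (-1.02) and Foxa2 (-0.82) were lower, and the groups overlapped for Foxa2. The edgeR adjusted p was 0.0946 for Il6ra, 0.0862 for Il1r1, 0.194 for Prox1, 0.0795 for Socs3 and 0.182 for Foxa2. Hnf4a, a nuclear receptor gene required for hepatocyte expression of many coagulation factors, had 613, 717 and 711 CPM in libraries labelled CRY1 KO, against 479, 399.8 and 353 CPM in WT, a log2 difference of 0.73 with an SE of 0.13 and an edgeR adjusted p of 0.0389. All CRY1 KO libraries lay above all WT libraries. Leaving out 1 library at a time, its log2 difference ran from 0.63 to 0.85, and the edgeR adjusted p was 0.168 without WT 2, 0.089 without CRY1 KO 1, 0.16 without CRY1 KO 2 and 0.164 without CRY1 KO 3. Nr1h4, which encodes the bile acid receptor FXR, had 118, 122 and 111 CPM in libraries labelled CRY1 KO, against 69.5, 82.7 and 90.5 CPM in WT, a log2 difference of 0.53 with an SE of 0.11 and an edgeR adjusted p of 0.0515. Its groups did not overlap either, and edgeR called it without WT 1 (adjusted p = 0.0475) and without WT 3 (adjusted p = 0.0231).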

How the data were processed

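RNA of 3 liver libraries labelled CRY1 KO and 3 labelled WT was sequenced from a stranded mRNA kit, per the labels. The authors deposited 1 table of estimated counts per gene and library; the submitters' processing notes name Trim Galore 0.6.7, HISAT2 2.2.1, StringTie 2.1.7, limma 3.42.2 and build GRCm39, with no settings. In every library more genes held the value 3 than 1, 2 or 4, so single reads cannot be read from low values, and how reads shared by gene copies were assigned is not given in the sources used here. SE and intervals come from the edgeR quasi-likelihood fit to 3 libraries per group, which draws the spread of each gene toward that of other genes. Serpinc1, with an SD within groups of 0.0225, has an SE of 0.089. An SE here is therefore not the spread of that gene's own libraries alone.

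The estimated counts were rounded and tested with edgeR 4.0.16 (filterByExpr with a minimum count of 10 and total of 15, TMM, robust quasi-likelihood fit, Benjamini-Hochberg adjustment, threshold 0.05), leaving 13816 of 15092 genes. CPM are the counts scaled by library total and TMM factor. Levels per kb use the longest principal transcript of GENCODE M21. Alternatives were DESeq2 1.42.0, other scaling, no filter, no robust estimation, a replicate block and each library left out. The code was tested on simulated data. The 43 members and all gene lists were chosen with earlier results of these data known. Values in every library are given for members past the threshold, the 6 of smallest p in each arm and the member of largest CPM in each role; other pathway genes are named where called by edgeR or the 2 of smallest p in their list, except that a gene of the complement list is not reported here. C2, C6, C8b and C9, and genes named only because DESeq2 called them, fall outside this rule and were chosen after their values were seen.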

Additional observations from a re-analysis of the deposited data

How the results depend on the processing

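Over all genes edgeR called 235, against 113 with no scaling beyond library totals, 94 with a replicate block, 1284 by DESeq2 and 17 to 844 with 1 library left out. Of the 43 members it called 0, against 1 by DESeq2 and 0 to 2 with 1 library left out, F13b and Mbl1 without WT 3. Whether the numbers in the sample titles pair the libraries cannot be told from these data. Same-numbered libraries had correlations of -0.12, -0.062 and 0.12 between their deviations from the group means. Differently numbered ones ran from -0.15 to 0.19. The replicate block called 0 members, and 6 had an unadjusted edgeR p under 0.05, against 5 without it. Among the members the block lowered the SE of C9 from 0.28 to 0.12 and raised that of C6 from 0.28 to 0.32. With 1 library left out the median log2 difference ran from -0.057 to -0.0072 over coagulation, nearest to 0 without CRY1 KO 3, and from -0.12 to -0.0088 over complement. The cause was not tested.

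In direction, 27 of the 43 members held under all 12 alternatives and 16 turned under at least 1. With no scaling the log2 difference was -0.0097 for Cfi, -0.013 for F2, -0.012 for F5 and -0.0018 for Masp2, and with the block 0.0061 for Klkb1. With 1 library left out it ran from -0.14 to 0.065 for C4bp, -0.097 to 0.37 for C6, -0.11 to 0.18 for C8b, -0.16 to 0.27 for C9, -0.056 to 0.073 for Cfi, -0.20 to 0.0014 for F11, -0.045 to 0.027 for F12, -0.052 to 0.039 for F2, -0.067 to 0.19 for F5, -0.0059 to 0.20 for F9, -0.098 to 0.10 for Klkb1, -0.00798 to 0.065 for Kng1, -0.014 to 0.086 for Masp2, -0.022 to 0.0197 for Plg, -0.11 to 0.019 for Pros1, -0.11 to 0.00704 for Proz and -0.19 to 0.088 for Cry1. Hnf4a had an adjusted p of 0.0512 in edgeR with no robust estimation and 0.0843 with the block. With 3 libraries a group, C6 and C9 had SE of 0.28, and a 1.5-fold increase lies within their intervals.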
